A study of Mus musculus with 35 samples.

Results

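The genes described are 3 FoxO transcription factors (Foxo1, Foxo3 and Foxo4) and 7 genes of growth restraint and muscle atrophy (Klf15, Sesn1, Sesn3, Gadd45a, Trim63, Fbxo32 and Gabarapl1). They were taken by name from a table of normalized counts after its Ensembl identifiers had been matched to gene symbols, and all 10 were found among its 27012 genes. Poly(A) RNA was sequenced from the heart apex of mice of mixed C57Bl/6/FVB strain, on day 3 after an operation at 6 weeks of age. The operation was either transaortic constriction (TAC), in which a suture tied around the aorta and a blunt needle narrows the vessel so that the left ventricle pumps against more pressure, or a sham operation. IRS1KO mice carried alphaMHC-Cre with a floxed Irs1 gene, IRS2KO mice carried alphaMHC-Cre with a floxed Irs2 gene, and the mice labelled WT carried the floxed Irs2 gene without Cre. There were 6 libraries each of IRS1KO TAC, IRS1KO sham, IRS2KO TAC, IRS2KO sham and WT sham hearts, and 5 of WT TAC hearts. The alphaMHC promoter is known to drive Cre in cardiomyocytes. None of the groups had Cre alone, and the IRS1KO mice carried another floxed gene than the WT mice, so an effect of Cre or of the floxed line cannot be told apart from an effect of losing the gene. Whether every library is another mouse is not stated in the labels, so p-values measure the spread between libraries, which may be technical.

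Insulin and insulin-like growth factors act on the heart through the adaptor proteins IRS1 and IRS2, which switch on PI3 kinase and then the kinase AKT. AKT phosphorylates FoxO proteins, which then bind 14-3-3 proteins and leave the nucleus. When insulin signalling falls, FoxO proteins enter the nucleus and switch on genes for protein breakdown, autophagy, stress defence and cell cycle arrest. In heart muscle the best known of these encode the ubiquitin ligases MuRF1 (Trim63) and atrogin-1 (Fbxo32), which mark sarcomere and signalling proteins for the proteasome. Because FoxO activity is set largely by phosphorylation and location, the RNA level of a FoxO gene is not a measure of how active its protein is.

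Each library held 11707111 to 14609467 reads assigned to genes, and 18599 to 20803 genes were detected in each. Irs1 had no read in replicate 1 of IRS1KO TAC and in replicate 1 of IRS1KO sham hearts, and 16.7 to 80.3 normalized counts in the other IRS1KO TAC and 19.7 to 43.8 in the other IRS1KO sham libraries, against 181 ± 40.6 in WT TAC hearts and 233 ± 52.5 in WT sham hearts (SD). Both libraries at 0 thus stand apart from the rest of their groups, and without the pair (a choice made after seeing the data) 8 of the 10 genes described were still called lower after TAC in IRS1KO hearts. Irs2 averaged 121 ± 41.2 in IRS2KO TAC hearts and 123 ± 14.4 in IRS2KO sham hearts, against 239 ± 68.6 in WT TAC hearts and 217 ± 174 in WT sham hearts. The difference of IRS2KO from WT in Irs2 did not pass limma's test in sham hearts (adjusted p = 1.0) or after TAC (adjusted p = 0.695), and WT sham replicate 2 had 564 normalized counts of Irs2. Summed over 7 cardiomyocyte markers, the level ran from 281140 to 559820 normalized counts in IRS1KO TAC hearts, from 256940 to 680450 in IRS2KO TAC hearts and from 367830 to 681470 in WT TAC hearts, against 707890 to 792380 in IRS1KO sham, 731790 to 785930 in IRS2KO sham and 709180 to 818580 in WT sham hearts. Of these 7 markers, 5 fell after TAC in IRS1KO hearts and 6 in each of the other genotypes. All 7 macrophage markers rose in every genotype. Of 7 fibroblast markers, 5 rose and 1 fell in both IRS1KO and IRS2KO hearts, and 6 rose and none fell in WT hearts. Of 6 endothelial markers, 6 fell in IRS1KO, 5 in IRS2KO and 4 in WT hearts, and none rose. Mitochondrial transcripts took 16.5% to 23.6% of reads in IRS1KO TAC, 15.6% to 27.98% in IRS2KO TAC and 21.8% to 26.98% in WT TAC hearts, against 26.4% to 29.8% in IRS1KO sham, 29.6% to 31.3% in IRS2KO sham and 29.2% to 30.6% in WT sham hearts. Markers of skeletal muscle summed to at most 154 normalized counts in any library, and markers of the atrium to at most 36.9 except in WT sham replicate 5, where they came to 330.2. The part of these shifts in the results below was not tested, and in RNA from whole tissue fewer cells of a type and less RNA per cell cannot be told apart.

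Promoter sequences were available from RefSeq (GRCm38.p6) for 8 of the 10 genes, without Foxo4 and Fbxo32. The 250 bases before the start of Trim63 and of Klf15 are shown, because the window of a ligase gene with the letters of a FoxO motif stands here beside that of a transcription factor gene without them. Coordinates are chr4:134314870-134315119 on the plus strand for Trim63 and chr6:90462326-90462575 on the plus strand for Klf15, and both run 5′ to 3′.
Trim63: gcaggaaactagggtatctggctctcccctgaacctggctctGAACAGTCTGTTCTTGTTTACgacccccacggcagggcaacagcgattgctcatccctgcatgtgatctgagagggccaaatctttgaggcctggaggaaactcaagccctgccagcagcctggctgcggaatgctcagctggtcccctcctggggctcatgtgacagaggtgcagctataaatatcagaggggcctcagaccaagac
Klf15: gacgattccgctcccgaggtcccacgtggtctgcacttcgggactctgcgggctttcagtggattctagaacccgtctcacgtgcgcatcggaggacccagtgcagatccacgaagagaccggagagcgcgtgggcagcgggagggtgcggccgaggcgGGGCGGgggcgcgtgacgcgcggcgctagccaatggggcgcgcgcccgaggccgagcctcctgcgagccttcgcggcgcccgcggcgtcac
In Trim63, the capitals mark GAACAGTCTGTTCT at bases -208 to -195 and, directly after it, TGTTTAC at bases -194 to -188, counted from the start site. TGTTTAC is the FoxO motif GTAAACA on the other strand, which 1040 of 32851 mouse promoters of this length held on either strand (3.17%). GAACAGTCTGTTCT matches, on the other strand, the glucocorticoid receptor motif AGAACA and TGTTC with 3 bases of any kind between them, which 10 of the 32851 promoters held (0.0304%). In Klf15, the capitals mark the KLF and SP family motif GGGCGG at bases -91 to -86, which 32.7% of promoters held on either strand. GTAAACA was in none of the other 8 windows, which belong to 7 genes because Sesn1 has 2 start sites, which says only that these letters are not in those bases, and a match is a description and not a shown binding site.

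All 10 are protein-coding genes, placed here on GRCm38. Of the FoxO factors, Foxo1 (ENSMUSG00000044167) at chr3:52268336-52353221 on the plus strand, Foxo3 (ENSMUSG00000048756) at chr10:42181841-42276755 on the minus strand and Foxo4 (ENSMUSG00000042903) at chrX:101254528-101260873 on the plus strand lie on 3 chromosomes. Of the growth-restraint genes, Klf15 (ENSMUSG00000030087) at chr6:90462576-90475238 on the plus strand and Gadd45a (ENSMUSG00000036390) at chr6:67035096-67037457 on the minus strand are on the same chromosome. The sestrin genes are Sesn1 (ENSMUSG00000038332) at chr10:41809935-41908424 on the plus strand and Sesn3 (ENSMUSG00000032009) at chr9:14275067-14333101 on the plus strand. The ligase genes are Trim63 (ENSMUSG00000028834) at chr4:134315120-134329629 on the plus strand and Fbxo32 (ENSMUSG00000022358) at chr15:58175879-58214932 on the minus strand, and the autophagy gene is Gabarapl1 (ENSMUSG00000030161) at chr6:129533160-129542346 on the plus strand. Values of each gene are for its whole exon set, so isoforms are not told apart.

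Per kilobase of exon, Trim63 had the highest level of the 10 genes in WT sham hearts, at 880.5 ± 74.8 normalized counts per kilobase (SD, n = 6). Sesn1 followed at 576 ± 28.3, Gabarapl1 at 529 ± 39.3 and Fbxo32 at 437 ± 34.1, and each of these overlapped its neighbour in the order. Klf15 at 240.4 ± 18.01, Foxo3 at 233 ± 16.6 and Foxo4 at 218 ± 17.9 normalized counts per kilobase formed a middle group whose ranges also overlapped. Gadd45a at 62.6 ± 11.6, Foxo1 at 46.1 ± 2.37 and Sesn3 at 22.1 ± 1.46 were lowest. Foxo3 and Foxo4 transcripts were thus more abundant per length than Foxo1 in WT sham hearts, with no overlap between the libraries. In IRS2KO TAC hearts every gene overlapped the next in the order, with Trim63 at 520.3 ± 122 and Gabarapl1 at 419 ± 53.4 at the top.

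**Figure D1:**
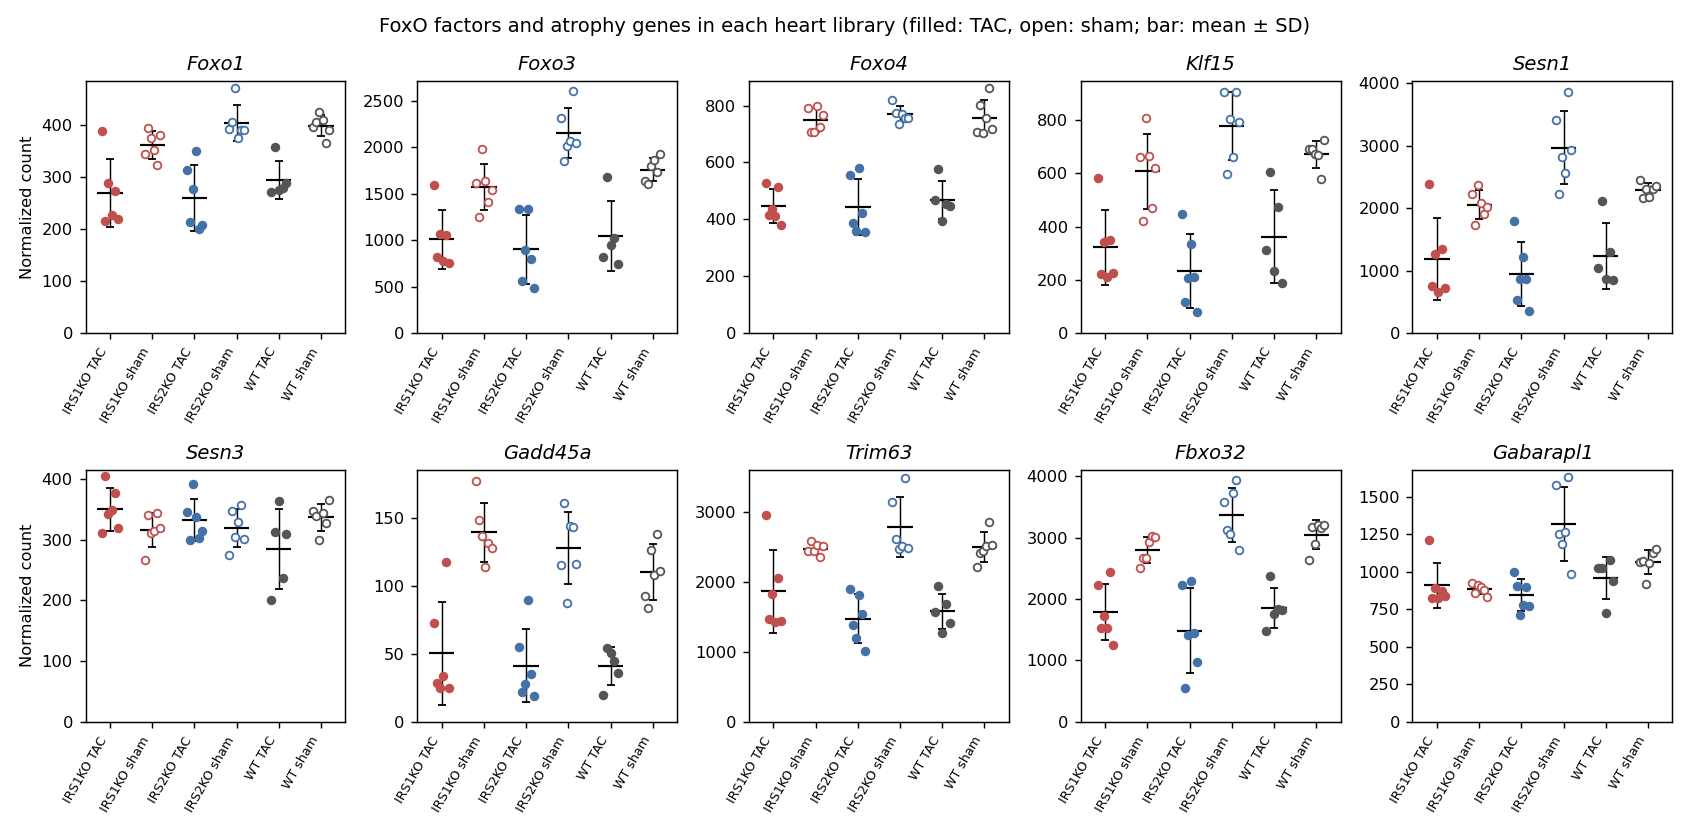
Normalized counts of the 10 genes (vertical axes, linear from 0) in each library of 6 groups. Points are libraries, filled for TAC and open for sham, and bars give the group mean ± SD. For 8 genes at most 1 TAC library of a genotype reaches its sham range, whereas Gabarapl1 overlaps in every genotype and Sesn3 lies between 200.3 and 405 in all 35 libraries.

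After TAC most of these genes fell, in every genotype. In IRS1KO hearts 8 of the 10 were lower and none higher by limma's test at an adjusted p of 0.05, in IRS2KO hearts 9 were lower and none higher, and in WT hearts 9 were lower and none higher. Over all 13695 genes tested, 64.1% were called in IRS1KO hearts (31.7% lower), 62.4% in IRS2KO hearts (31.1% lower) and 54.9% in WT hearts (26.6% lower). The median log2 fold change of the 10 genes was -0.68 in IRS1KO, -1.13 in IRS2KO and -0.71 in WT hearts, beside -0.01 over all genes in each. In 2 genes of IRS1KO, 7 of IRS2KO and 6 of WT hearts every TAC library lay below every sham library, which was so for 16.7%, 13.6% and 14.3% of all genes. Folds are ratios of group means, and log2 fold changes are differences of mean log2(normalized count + 1).

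The size of these falls depends on how libraries are scaled. If every library is set to the same total, the median gene shifts up after TAC by 0.30 in IRS1KO, 0.33 in IRS2KO and 0.24 in WT hearts on the log2 scale, and the share of calls that are higher becomes 76.8%, 79.7% and 79.7%, against 50.6%, 50.2% and 51.6% on the deposited scale. Quantile normalization gave 44%, 43.8% and 42.4% higher. In the comparisons of IRS1KO with WT and with IRS2KO the higher share of all calls, 42.9% to 45.8% on the deposited scale, became 61.8% to 71% with the same total. On the same total 4 of the 10 genes were lower and 2 higher in IRS1KO hearts, 9 were lower and 1 higher in IRS2KO hearts, and 7 were lower and none higher in WT hearts. Foxo1 lost its call in IRS1KO and WT hearts, and Foxo3, Trim63 and Fbxo32 lost theirs in IRS1KO hearts. Several log2 fold changes shrank by over 1.5 times, to -0.15 in IRS1KO, -0.33 in IRS2KO and -0.19 in WT hearts for Foxo1, to -0.44, -0.49 and -0.44 for Foxo4, and to -0.15, -0.60 and -0.42 for Trim63. Foxo3 in IRS1KO (-0.37), Fbxo32 in IRS1KO (-0.38) and WT (-0.47) and Gabarapl1 in IRS2KO hearts (-0.29) did likewise. Foxo4, Klf15, Sesn1 and Gadd45a were lower in all 3 genotypes under every scaling tried. On the deposited scale the count of genes called stayed at 8 in IRS1KO and 9 in IRS2KO without any 1 library, and was 8 or 9 in WT hearts.

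Foxo3, which encodes the FoxO factor most closely tied to muscle atrophy, fell furthest of the 3 FoxO genes in IRS2KO hearts. It had a lowest value of 486, a median of 846 and a highest of 1335 normalized counts in IRS2KO TAC hearts, against a lowest value of 1856, a median of 2054 and a highest of 2609 in IRS2KO sham hearts. The groups did not overlap, and the mean was 2.39-fold lower after TAC (log2 fold change -1.35, SE 0.20, adjusted p = 1.40e-06, limma). In IRS1KO hearts Foxo3 had a lowest value of 753, a median of 936 and a highest of 1599.9 after TAC, against a lowest value of 1249, a median of 1579.6 and a highest of 1981 after sham operation. These groups overlapped through the highest TAC library, and the mean was 1.55-fold lower (log2 fold change -0.67, SE 0.20, adjusted p = 0.00456, limma). The WT TAC libraries had 823, 1682, 949.9, 1025 and 746 normalized counts of Foxo3, against a lowest value of 1605, a median of 1766 and a highest of 1925 in WT sham hearts. WT TAC replicate 2 alone reached the sham range, and the mean was 1.68-fold lower (log2 fold change -0.81, SE 0.21, adjusted p = 0.00204, limma).

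Foxo4, on chromosome X, had similar falls in the 3 genotypes. Its TAC libraries had 379 to 527 normalized counts in IRS1KO, 357 to 580.2 in IRS2KO and 393 to 578 in WT hearts, against 706 to 799, 735 to 822 and 704 to 861 in the sham hearts of the same genotypes. In none of the genotypes did a TAC library reach the sham range. The log2 fold changes were -0.75 (SE 0.10, adjusted p = 2.03e-07) in IRS1KO, -0.82 (SE 0.10, adjusted p = 6.36e-08) in IRS2KO and -0.70 (SE 0.11, adjusted p = 2.93e-06) in WT hearts, by limma. Foxo1, a regulator of metabolism as well as of atrophy genes, had 271, 358, 275, 279.9 and 289 normalized counts in WT TAC hearts, against a lowest value of 366, a median of 402 and a highest of 426 in WT sham hearts. These groups stood just apart, at 358 and 366 counts. The knockout TAC libraries had 216 to 389 in IRS1KO and 200.04 to 350.2 in IRS2KO hearts, against 323 to 395 in IRS1KO sham and 375 to 472 in IRS2KO sham hearts, and 1 IRS1KO TAC library reached its sham range. Foxo1 was 1.34-fold lower after TAC in IRS1KO (log2 fold change -0.45, SE 0.12, adjusted p = 0.00162), 1.56-fold lower in IRS2KO (log2 fold change -0.67, SE 0.12, adjusted p = 2.21e-05) and 1.36-fold lower in WT hearts (log2 fold change -0.45, SE 0.13, adjusted p = 0.00409, limma).

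Klf15, a transcription factor that restrains cardiac hypertrophy and drives amino acid breakdown, had the largest fall of all 10 genes in IRS2KO hearts. The IRS2KO TAC libraries had a lowest value of 77.1, a median of 209 and a highest of 449 normalized counts, against a lowest value of 597, a median of 799 and a highest of 905 in IRS2KO sham hearts. Even the highest TAC library stayed below the lowest sham library, and the mean was 3.34-fold lower (log2 fold change -1.95, SE 0.30, adjusted p = 2.04e-06, limma). In IRS1KO hearts Klf15 had a lowest value of 209, a median of 284 and a highest of 582 after TAC, against a lowest value of 421, a median of 642 and a highest of 807 after sham operation, with an overlap between the groups. There the mean was 1.89-fold lower (log2 fold change -0.98, SE 0.30, adjusted p = 0.00522, limma). WT TAC hearts had 313, 605, 234, 475 and 186 normalized counts, against a lowest value of 578, a median of 682 and a highest of 727 in WT sham hearts. Replicate 2 again lay within the sham range, and the mean was 1.85-fold lower (log2 fold change -1.02, SE 0.32, adjusted p = 0.00739, limma).

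Sesn1 encodes a stress-induced sestrin, which holds back the growth kinase complex mTORC1. It had a lowest value of 349, a median of 871 and a highest of 1792 normalized counts in IRS2KO TAC hearts, against a lowest value of 2232, a median of 2875 and a highest of 3862 in IRS2KO sham hearts. No library crossed between the groups, and the mean was 3.16-fold lower (log2 fold change -1.83, SE 0.28, adjusted p = 2.14e-06, limma). IRS1KO TAC hearts had a lowest value of 661, a median of 1008 and a highest of 2392, against a lowest value of 1732, a median of 2052 and a highest of 2370.2 in IRS1KO sham hearts. The highest IRS1KO TAC library, replicate 1, exceeded every IRS1KO sham library, and the mean was 1.73-fold lower (log2 fold change -0.94, SE 0.28, adjusted p = 0.00437, limma). WT TAC hearts had 1046, 2119, 861, 1296 and 848 normalized counts of Sesn1, against a lowest value of 2159, a median of 2309 and a highest of 2458 in WT sham hearts. The WT groups stood apart, and the mean was 1.86-fold lower (log2 fold change -0.98, SE 0.30, adjusted p = 0.00613, limma).

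Sesn3, another sestrin gene and a direct FoxO target in other tissues, passed the test in WT hearts alone. It averaged 351 ± 35.5 normalized counts in IRS1KO TAC and 316 ± 27.8 in IRS1KO sham hearts, 332 ± 34.6 in IRS2KO TAC and 319 ± 31.4 in IRS2KO sham hearts, and 285 ± 65.4 in WT TAC and 337 ± 22.3 in WT sham hearts (SD). Neither knockout passed the test, with log2 fold changes of 0.15 (95% interval -0.06 to 0.35, adjusted p = 0.202) in IRS1KO and 0.06 (-0.15 to 0.26, adjusted p = 0.635) in IRS2KO hearts by limma, but with the same total per library both became calls of a rise (log2 fold changes 0.46 and 0.39, on a scale where the median gene stands at 0.30 and 0.33). In WT hearts Sesn3 had 200.25, 313, 364, 237 and 309 normalized counts after TAC, against a lowest value of 299, a median of 342 and a highest of 365 after sham operation. Only the replicates 1 and 5 of WT TAC lay below the sham range, and the log2 fold change was -0.27 (SE 0.11, adjusted p = 0.0304, limma). That call was lost without WT TAC replicate 1 (log2 fold change -0.15, adjusted p = 0.195), without WT TAC replicate 5 (adjusted p = 0.108), without WT sham replicate 6 (adjusted p = 0.0615), with no filter (adjusted p = 0.0533), with only the WT libraries in the fit (adjusted p = 0.0882), with edgeR (adjusted p = 0.0512) and with the same total per library (adjusted p = 0.923).

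Gadd45a, a growth arrest gene that FoxO4 and other stress factors induce in muscle, had the largest log2 fall of the 10 genes in IRS1KO and WT hearts, at the lowest read depth. It had a lowest value of 24.5, a median of 31.3 and a highest of 118 normalized counts in IRS1KO TAC hearts, against a lowest value of 114, a median of 134 and a highest of 178 in IRS1KO sham hearts. These overlapped through replicate 5 of IRS1KO TAC, the highest TAC library, and the mean was 2.77-fold lower (log2 fold change -1.71, SE 0.32, adjusted p = 3.26e-05, limma). IRS2KO TAC hearts had a lowest value of 18.7, a median of 31.5 and a highest of 89.6 normalized counts, against a lowest value of 87.6, a median of 130.2 and a highest of 162 in IRS2KO sham hearts. The overlap was 1 TAC library and 1 sham library, and the mean was 3.11-fold lower (log2 fold change -1.80, SE 0.32, adjusted p = 1.86e-05, limma). WT TAC hearts had 19.8, 54.7, 50.5, 44.95 and 36.0, against a lowest value of 83.8, a median of 110.0 and a highest of 139 in WT sham hearts, with the groups apart and the mean 2.68-fold lower (log2 fold change -1.46, SE 0.34, adjusted p = 0.000642, limma). The antisense gene E230016M11Rik overlaps Gadd45a and averaged 7.64 normalized counts over all libraries, and the sources used here do not say whether reads were counted by strand.

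Of the ubiquitin ligase genes, Fbxo32 had a lowest value of 544, a median of 1434 and a highest of 2288 normalized counts in IRS2KO TAC hearts, against a lowest value of 2801, a median of 3354 and a highest of 3936 in IRS2KO sham hearts. The groups did not overlap, the TAC libraries spread more widely than the sham libraries, and the mean was 2.27-fold lower (log2 fold change -1.33, SE 0.21, adjusted p = 2.98e-06, limma). In IRS1KO hearts Fbxo32 had a lowest value of 1253, a median of 1627 and a highest of 2447 after TAC, against a lowest value of 2503, a median of 2801 and a highest of 3023 after sham operation. Here too the groups were apart, with a mean 1.57-fold lower (log2 fold change -0.68, SE 0.21, adjusted p = 0.00536, limma). WT TAC hearts had 1484, 2375, 1759, 1834 and 1817, against a lowest value of 2628, a median of 3167 and a highest of 3213 in WT sham hearts. Every WT TAC library lay below the WT sham libraries, and the mean was 1.64-fold lower (log2 fold change -0.73, SE 0.22, adjusted p = 0.00628, limma). The antisense gene Gm15943 overlaps Fbxo32 and averaged 14.7 normalized counts.

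Trim63 fell in all 3 genotypes as well. It had a lowest value of 1015, a median of 1468 and a highest of 1908 normalized counts in IRS2KO TAC hearts, against a lowest value of 2469, a median of 2563 and a highest of 3488 in IRS2KO sham hearts, with no overlap. The mean was 1.88-fold lower (log2 fold change -0.94, SE 0.14, adjusted p = 2.14e-06, limma). WT TAC hearts had 1571, 1947, 1276, 1688 and 1419, against a lowest value of 2216, a median of 2484 and a highest of 2868 in WT sham hearts, also without overlap, and the mean was 1.58-fold lower (log2 fold change -0.67, SE 0.15, adjusted p = 0.000464, limma). IRS1KO TAC hearts had a lowest value of 1436, a median of 1653 and a highest of 2961, against a lowest value of 2358, a median of 2481 and a highest of 2585 in IRS1KO sham hearts. The highest IRS1KO TAC library, replicate 1, exceeded all IRS1KO sham libraries, and the mean was 1.33-fold lower (log2 fold change -0.46, SE 0.14, adjusted p = 0.00635, limma).

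Gabarapl1 encodes an ATG8-family protein of the autophagosome membrane. It had a lowest value of 708, a median of 839.8 and a highest of 998 normalized counts in IRS2KO TAC hearts, against a lowest value of 986, a median of 1256 and a highest of 1633 in IRS2KO sham hearts. The groups touched at 1 library each, and the mean was 1.56-fold lower (log2 fold change -0.63, SE 0.11, adjusted p = 8.14e-06, limma). It did not pass the test in WT hearts, with 1026, 1024, 727, 1078 and 939 normalized counts after TAC, against a lowest value of 921, a median of 1069.6 and a highest of 1149 after sham operation (log2 fold change -0.16, 95% interval -0.39 to 0.07, adjusted p = 0.225, limma). Nor did it in IRS1KO hearts, with a lowest value of 822, a median of 853 and a highest of 1213 after TAC, against a lowest value of 832, a median of 886 and a highest of 926 after sham operation (log2 fold change 0.03, 95% interval -0.19 to 0.25, adjusted p = 0.83, limma). With the same total per library the WT value turned positive (0.10, not called), and the IRS1KO value became a called rise (log2 fold change 0.34, adjusted p = 0.00266, limma).

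**Figure D2:**
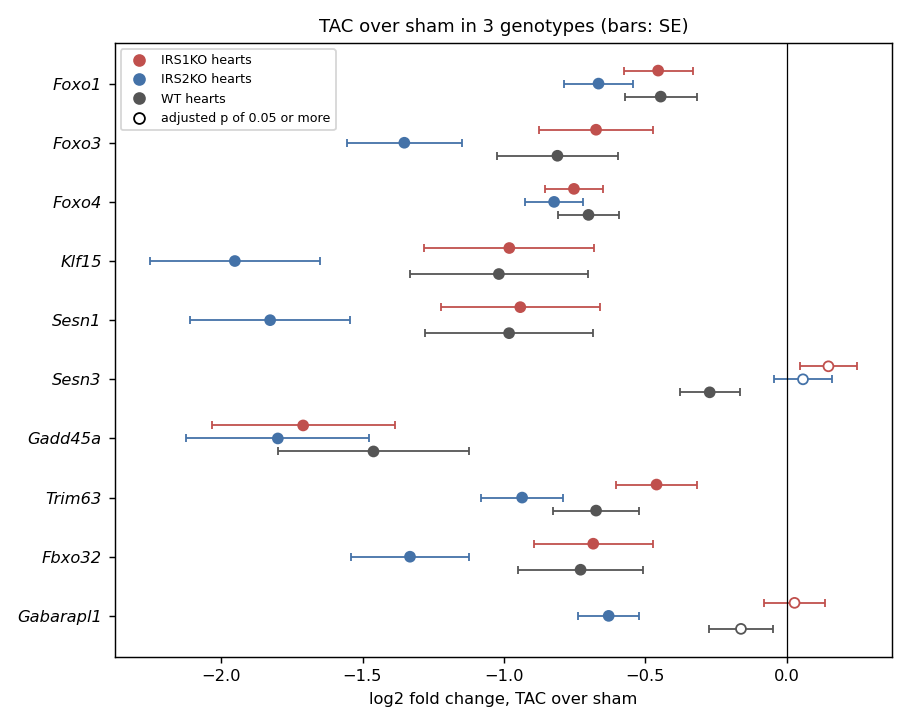
Log2 fold change of each gene, TAC over sham (horizontal axis), with its SE, in IRS1KO, IRS2KO and WT hearts. Filled points passed an adjusted p of 0.05 in limma; Klf15 and Sesn1 lie near -1.95 and -1.83 in IRS2KO hearts and near -1 in the others, and Sesn3 lies between -0.27 and 0.15.

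The same TAC libraries stood high for several genes at once. In IRS1KO TAC hearts replicate 1, which had no Irs1 read, was the highest of the 6 libraries for 7 of the 10 genes, in IRS2KO TAC hearts replicate 4 was highest for 5 and replicate 1 for 4, and in WT TAC hearts replicate 2 was highest for 8. Their cardiomyocyte marker sums were 450300, 680400, 601400 and 681500 normalized counts, beside group medians of 355430 in IRS1KO TAC, 367960 in IRS2KO TAC and 452660 in WT TAC hearts. Their macrophage marker sums were 3295, 1713, 2621 and 2079, beside medians of 4137, 4575 and 4168. Replicate 5 of IRS1KO TAC was highest for Fbxo32 and Gadd45a alone. Yet it had a higher cardiomyocyte sum (559800) and a lower macrophage sum (2424) than replicate 1 of that group. The part of the cell mixture in these shared high values was not tested.

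Deviations from the group mean were compared between genes over the 17 TAC and, separately, the 18 sham libraries, with permutations of libraries within groups and adjustment over all 90 pairs. In TAC hearts the median Pearson's r over the 45 pairs was 0.73, and 31 pairs passed an adjusted p of 0.05, 30 of them with a positive r. Pairs drawn from all tested genes were not compared in this way, in TAC or in sham hearts. Whether such values are particular to the genes described was thus not tested. Klf15 and Sesn1 moved most closely together (r = 0.97, Spearman's rho = 0.946, permutation p = 1e-05 each, the smallest that 100000 permutations can give, and adjusted p = 0.000225). Without the 2 libraries farthest from the median of Klf15, r was 0.951. Foxo3 followed Sesn1 (r = 0.954, rho = 0.949) and Klf15 (r = 0.948, rho = 0.929) in the TAC libraries, each with an adjusted permutation p of 0.000225 for both measures, and without the 2 farthest libraries r was 0.938 and 0.937. Trim63 followed Sesn1 (r = 0.923, rho = 0.922, adjusted permutation p = 0.0003 and 0.00036), with r = 0.884 without the 2 farthest. Sesn3 and Gabarapl1 ran in opposite directions (r = -0.59, rho = -0.61, adjusted permutation p = 0.0456 and 0.0351), with r = -0.50 without the 2 farthest. With the replicate number removed as well as the group mean, r for Sesn3 with Gabarapl1 shrank to -0.32. It was 0.959 for Klf15 with Sesn1, 0.975 for Foxo3 with Sesn1, 0.956 for Foxo3 with Klf15 and 0.909 for Trim63 with Sesn1.

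In sham hearts the median r was 0.10 and 4 pairs passed by Pearson's r. The first was Foxo3 with Klf15 (r = 0.842, rho = 0.794, adjusted permutation p = 0.00156 and 0.00252). Further pairs were Klf15 with Sesn1 (r = 0.816, rho = 0.868, adjusted permutation p = 0.000675 and 0.000514), Foxo3 with Sesn1 (r = 0.809, rho = 0.781, adjusted permutation p = 0.0007 and 0.00324), and Trim63 with Gabarapl1 (r = 0.736, rho = 0.637, adjusted permutation p = 0.0456 and 0.0416). Without the 2 farthest libraries these were 0.787, 0.726, 0.714 and 0.63. With the replicate number removed as well, r over the 18 sham libraries was 0.862 for Foxo3 with Klf15, 0.903 for Klf15 with Sesn1, 0.83 for Foxo3 with Sesn1 and 0.726 for Trim63 with Gabarapl1. By Spearman's rho but not by Pearson's r, Gabarapl1 also passed with Sesn1 (rho = 0.643, adjusted permutation p = 0.034) and with Foxo3 (rho = 0.596, adjusted permutation p = 0.0351). Their Pearson's r was 0.531 and 0.484. The part of the cell mixture in these values was not tested. No label gives a batch or date, so no within-batch values could be had.

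**Figure D3:**
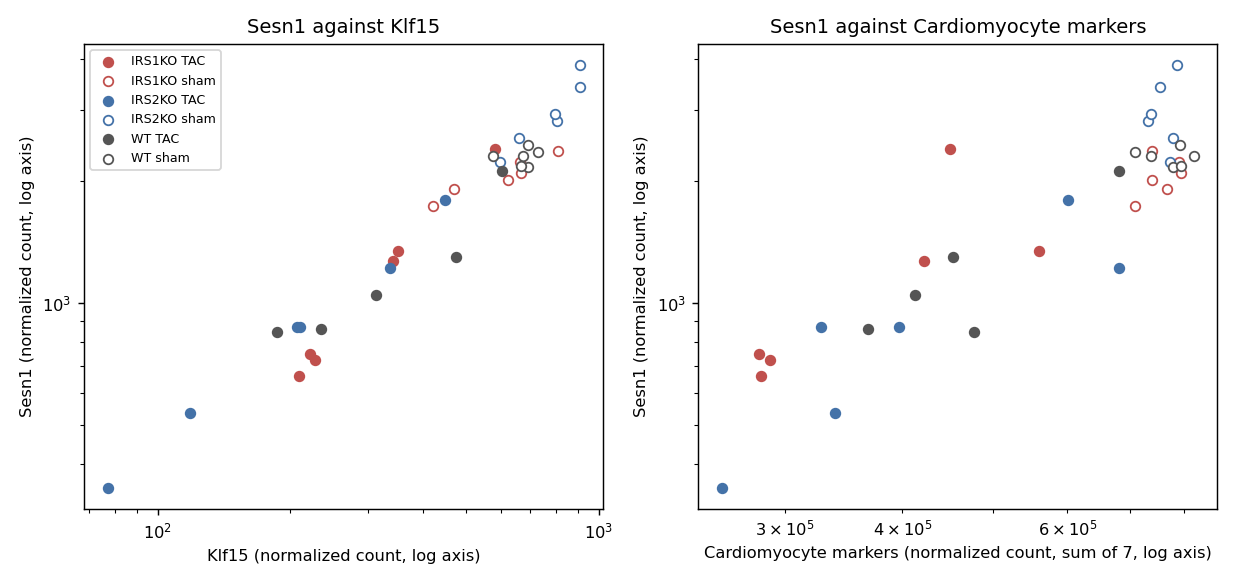
Sesn1 against Klf15 (left) and against the sum of 7 cardiomyocyte markers (right), in normalized counts on log axes, with 1 point per library, filled for TAC and open for sham. Sesn1 and Klf15 lie along 1 line through all groups, and the sham libraries have marker sums between 707890 and 818580.

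Between genotypes in sham hearts, the counts of the 10 genes called were near the shares of all genes. None of the 10 passed the test for IRS1KO against WT, where 4.65% of all genes did, and none for IRS2KO against WT, where 0% did. At an unadjusted p under 0.05 there was 1 of the 10 in each, Gabarapl1 both times, beside 2203 and 534 of all 13695 genes. Neither edgeR nor DESeq2 called any of the 10. When the knockouts were compared, Gabarapl1 alone of the 10 passed. It averaged 883 ± 35.1 normalized counts in IRS1KO sham hearts, against 1316 ± 246 in IRS2KO sham hearts (SD, n = 6 each), and 1065 ± 79.2 in WT sham hearts. The IRS1KO and IRS2KO libraries did not overlap, and the mean was 1.49-fold lower in IRS1KO (log2 fold change -0.55, SE 0.11, adjusted p = 0.000614, limma, 95% interval -0.77 to -0.34). In that comparison 8.3% of all genes were called, 4.64% lower, and 4.72% lay wholly lower in IRS1KO. The call was kept under every alternative and without any 1 library, where the highest adjusted p was 0.00334. The sum of 4 smooth muscle markers was also set apart in these libraries, at 4906 to 7095 normalized counts in IRS1KO sham, against 1965 to 2564 in IRS2KO sham and 2280.4 to 3298 in WT sham hearts. Of the 3 that were tested, Acta2 was higher in IRS1KO (log2 fold change 1.81 against IRS2KO, adjusted p = 2.01e-10, limma), and Myh11 (-0.02, adjusted p = 0.971) and Cnn1 (-0.27, adjusted p = 0.798) did not pass. The part of this shift in the Gabarapl1 difference was not tested.

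The WT level of Gabarapl1 lay between the 2 knockouts. Against WT sham hearts it was -0.27 in IRS1KO (95% interval -0.48 to -0.05, adjusted p = 0.178) and 0.29 in IRS2KO (0.07 to 0.50, adjusted p = 1.0) on the log2 scale by limma, and these comparisons share the WT sham libraries. In a fit of the 12 IRS1KO and WT sham libraries alone it passed for IRS1KO (adjusted p = 0.00497). In a fit of the IRS1KO and IRS2KO sham libraries alone Foxo3 (log2 fold change -0.46, adjusted p = 0.0047), Sesn1 (-0.51, adjusted p = 0.00718) and Fbxo32 (-0.26, adjusted p = 0.0309) were lower in IRS1KO as well. With all 6 groups in the fit, their adjusted p-values were 0.175, 0.3 and 0.519. Sesn1 had 1732 to 2370.2 normalized counts in IRS1KO sham hearts, against 2232 to 3862 in IRS2KO sham hearts.

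**Figure D4:**
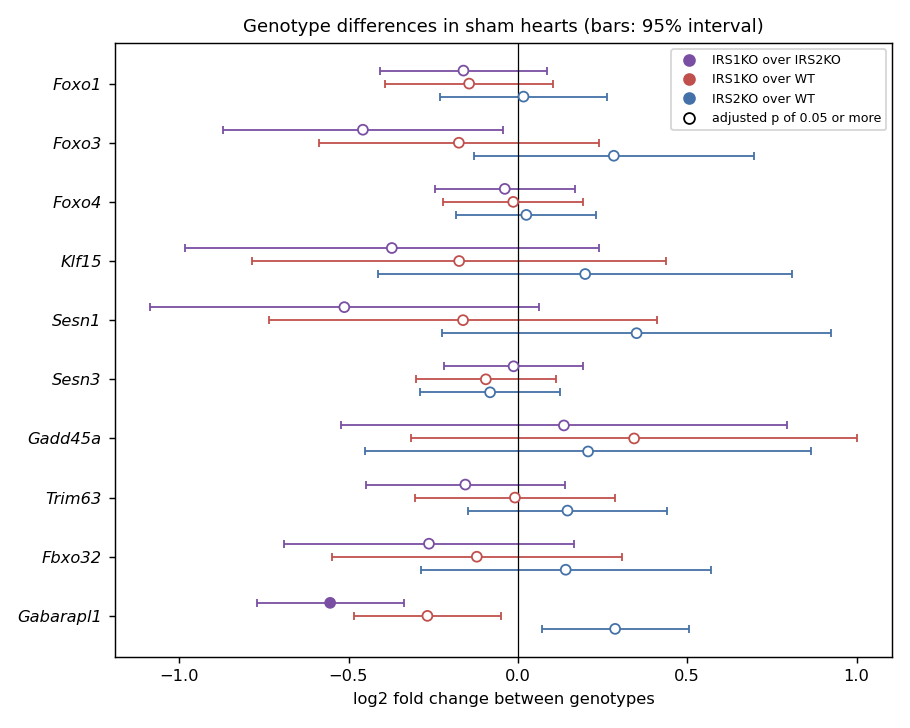
Log2 fold changes between genotypes in sham hearts (horizontal axis) for each gene, with 95% intervals, for IRS1KO over IRS2KO, IRS1KO over WT and IRS2KO over WT. Only the Gabarapl1 difference of IRS1KO over IRS2KO, at -0.55, is filled for an adjusted p under 0.05.

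After TAC none of the 10 genes passed the test for IRS1KO against WT (4.7% of all genes called), IRS2KO against WT (0%) or IRS1KO against IRS2KO (2.36%), and none by edgeR or DESeq2. At an unadjusted p under 0.05 there were 1, 3 and 1 of the 10, beside 2827, 931 and 1686 of all 13695 genes. Sesn3 came nearest in IRS1KO, with 351 ± 35.5 normalized counts in IRS1KO TAC hearts, against 285 ± 65.4 in WT TAC hearts (log2 fold change 0.33, 95% interval 0.11 to 0.54, adjusted p = 0.0717, limma). It passed without WT TAC replicate 3 (0.42, adjusted p = 0.0109), without both IRS1KO libraries that had no Irs1 read (0.36, adjusted p = 0.0473) and with the same total per library (0.46, adjusted p = 0.0209), a scaling that moves the median gene of this comparison by 0.14. Klf15 averaged 233 ± 138 in IRS2KO TAC hearts, against 363 ± 174 in WT TAC hearts (log2 fold change -0.74, 95% interval -1.38 to -0.09, adjusted p = 0.721, limma). Trim63 averaged 1869 ± 591 in IRS1KO TAC hearts, against 1479 ± 348 in IRS2KO TAC hearts (log2 fold change 0.32, 95% interval 0.03 to 0.61, adjusted p = 0.349, limma), and passed only with the same total per library (0.39, adjusted p = 0.036).

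The response to TAC was then compared between genotypes, as a difference of log2 fold changes. For IRS1KO against WT none of the 10 genes passed (0.11% of all genes called). At an unadjusted p under 0.05 there was 1 of the 10, Sesn3 (0.42, 95% interval 0.12 to 0.72), beside 1216 of all 13695 genes. For IRS2KO against WT none passed (0% called) and 4 of the 10 had an unadjusted p under 0.05, beside 713 of all 13695 genes. The 4 were Klf15 (-0.93, 95% interval -1.82 to -0.05), Sesn1 (-0.85, -1.68 to -0.01), Sesn3 (0.33, 0.03 to 0.63) and Gabarapl1 (-0.47, -0.78 to -0.15), each with an adjusted p of at least 0.752. The larger falls of Klf15 and Sesn1 in IRS2KO hearts were thus not shown to differ from those in WT hearts, and edgeR and DESeq2 called none of the 10 in either comparison.

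Between the knockouts 1 of the 10 genes passed, Gabarapl1, where 0.409% of all genes did. Its log2 response was 0.03 in IRS1KO and -0.63 in IRS2KO hearts, a difference of 0.66 (SE 0.15, 95% interval 0.35 to 0.96, adjusted p = 0.0443, limma). This call was lost in 17 of the 24 fits that left out 1 library (adjusted p up to 0.0982) and without both IRS1KO libraries that had no Irs1 read (difference 0.59, adjusted p = 0.123), and its level in IRS2KO sham hearts is the same one that set the genotypes apart above. Foxo3, Klf15, Sesn1, Trim63 and Fbxo32 had less negative responses in IRS1KO than in IRS2KO at an unadjusted p under 0.05, with differences of 0.68, 0.97, 0.88, 0.48 and 0.65, and none passed after adjustment (adjusted p of at least 0.341). With Gabarapl1, 6 of the 10 genes had an unadjusted p under 0.05, beside 1566 of all 13695 genes.

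**Figure D5:**
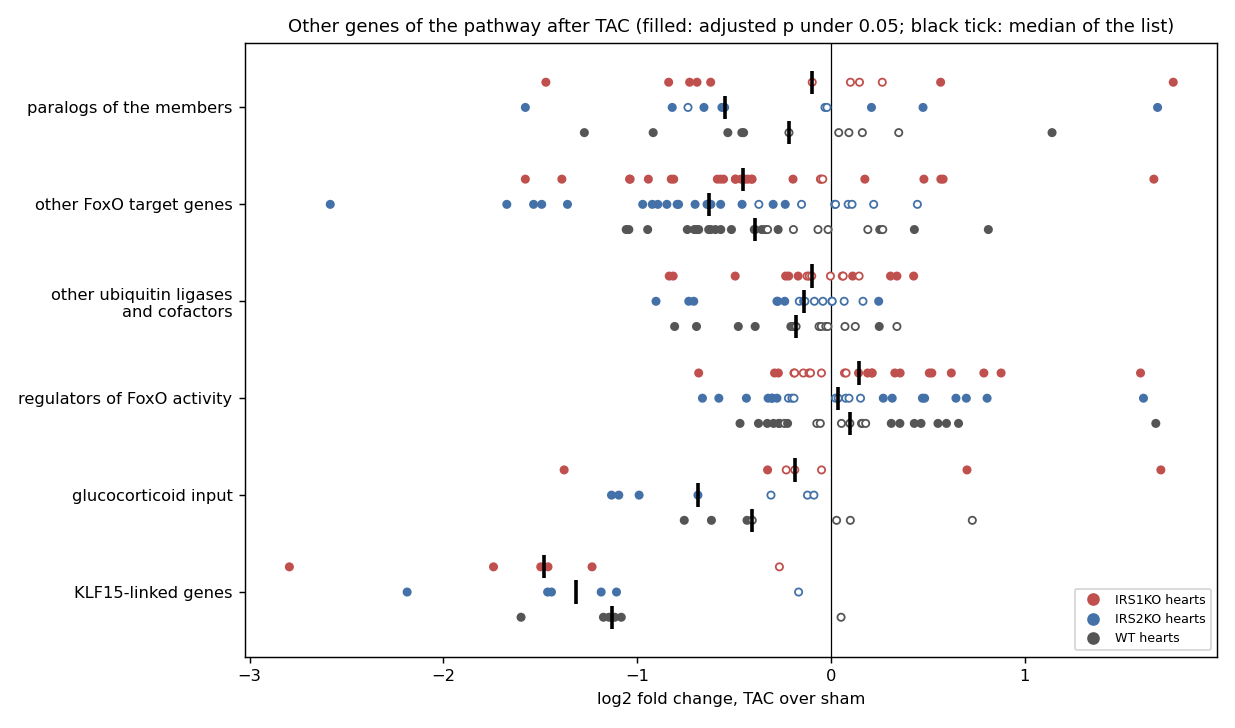
Log2 fold changes, TAC over sham (horizontal axis), of other genes of the pathway in 6 lists and 3 genotypes. Each point is a gene, filled where its adjusted p was under 0.05, and the black tick is the median of the list; the KLF15-linked genes lie furthest to the left, with medians of -1.48 in IRS1KO, -1.31 in IRS2KO and -1.13 in WT hearts.

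Other genes of the pathway were followed in 6 lists. Over all 13695 genes tested, 4442 rose and 4335 fell after TAC in IRS1KO hearts. In IRS2KO hearts 4286 rose and 4260 fell, and in WT hearts 3877 rose and 3638 fell. With the same total per library 7181 rose and 2164 fell in IRS1KO, 7438 and 1890 in IRS2KO, and 6221 and 1583 in WT hearts. Of 26 other FoxO target genes, 17 fell and 5 rose after TAC in IRS1KO hearts, 18 fell and none rose in IRS2KO hearts, and 17 fell and 3 rose in WT hearts, with list medians of -0.45, -0.63 and -0.39. Under the same total per library the counts were 10 lower and 8 higher, 15 lower and 6 higher, and 9 lower and 6 higher. Pink1, a kinase that starts the removal of damaged mitochondria, averaged 2057 ± 643 normalized counts in IRS1KO TAC and 5948 ± 636 in IRS1KO sham hearts (log2 fold change -1.58, SE 0.19, adjusted p = 2.68e-08, limma), and it fell in IRS2KO (-1.36) and WT (-1.04) hearts too. Cat, which encodes the antioxidant enzyme catalase, fell by 0.59 in IRS1KO, 0.79 in IRS2KO and 0.68 in WT hearts on the log2 scale. Ccng2, a cyclin of cell cycle arrest, and Pik3c3, the lipid kinase of autophagosome formation, fell in all 3 genotypes, by 0.55, 0.92 and 0.60 and by 0.44, 0.57 and 0.36. Pik3c3 kept its call only in IRS2KO hearts with the same total per library, and Ccng2 lost it in IRS1KO hearts.

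Paralogs of the 10 genes did not all follow them. Among 11, 5 fell in each genotype, while 2 rose in IRS1KO, 3 in IRS2KO and 1 in WT hearts, with list medians of -0.10, -0.55 and -0.22. With the same total per library 5 fell and 6 rose in IRS1KO, 4 fell and 5 rose in IRS2KO, and 3 fell and 5 rose in WT hearts. Gadd45g, a relative of Gadd45a, went the other way from Gadd45a, with 256 ± 69.2 normalized counts in IRS1KO TAC hearts, against 74.2 ± 18.8 in IRS1KO sham hearts (log2 fold change 1.77, SE 0.36, adjusted p = 7.31e-05, limma). It also rose in IRS2KO (1.69, adjusted p = 0.000142) and WT hearts (1.14, adjusted p = 0.0107). Klf9, a KLF factor that glucocorticoids induce, fell like Klf15, by 0.84 in IRS1KO, 1.58 in IRS2KO and 0.92 in WT hearts on the log2 scale. The autophagosome genes Map1lc3a and Map1lc3b fell in all 3 genotypes, by 0.73, 0.65 and 0.46 and by 0.69, 0.82 and 0.53, and Map1lc3a lost its WT call with the same total per library.

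The list of genes linked to KLF15 holds 6 genes of amino acid breakdown and of cardiac repolarization, and 5 of them fell in each genotype under every scaling tried. Kcnip2, a subunit of the cardiac transient outward potassium channel, averaged 566 ± 411 normalized counts in IRS1KO TAC and 3144 ± 217 in IRS1KO sham hearts, 670.2 ± 539 in IRS2KO TAC and 2275 ± 171 in IRS2KO sham hearts, and 809 ± 375 in WT TAC and 2280.5 ± 290.4 in WT sham hearts. Its log2 fold changes were -2.79, -2.19 and -1.60 (adjusted p = 4.22e-07, 1.86e-05 and 0.00174, limma). Bckdha and Bckdhb, subunits of the enzyme that commits branched-chain amino acids to breakdown, fell by 1.46 and 1.497 in IRS1KO, 1.44 and 1.19 in IRS2KO, and 1.12 and 1.14 in WT hearts. Prodh, which starts proline breakdown, fell by 1.23, 1.11 and 1.08. Bcat2, the mitochondrial branched-chain aminotransferase, was lower in IRS1KO TAC hearts (961 ± 89.4 normalized counts) than in WT TAC hearts (1755 ± 293; log2 fold change -0.86, SE 0.17, adjusted p = 0.00124, limma). It was also lower in IRS1KO sham hearts (1154 ± 92.8) than in WT sham hearts (1685 ± 220.4; log2 fold change -0.54, SE 0.16, adjusted p = 0.0439, limma), a call that quantile normalization removed (adjusted p = 0.0767). Bckdha was lower as well in IRS1KO than in WT hearts after TAC (-0.82, adjusted p = 0.0226).

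Glucocorticoid receptor genes bear on the pathway because the receptor induces Klf15 and Trim63. Of 7 such genes, 2 rose and 2 fell after TAC in IRS1KO hearts, 4 fell in IRS2KO and 3 fell in WT hearts, with none higher in either of these and list medians of -0.19, -0.69 and -0.41. With the same total per library 1 fell and 2 rose in IRS1KO, 2 fell in IRS2KO, and 1 fell and 1 rose in WT hearts. Hsd11b1, the enzyme that regenerates active glucocorticoid, fell by 1.38 in IRS1KO, 0.99 in IRS2KO and 0.76 in WT hearts. Tsc22d3 (GILZ), a glucocorticoid-induced regulator, fell in IRS2KO (-1.13, adjusted p = 1.43e-06) and WT hearts (-0.62, adjusted p = 0.00451, but 0.0543 with the same total per library), and its value in IRS1KO hearts was -0.19 (adjusted p = 0.343). After TAC it was higher in IRS1KO than in IRS2KO hearts (1425 ± 349 and 866 ± 167 normalized counts, log2 fold change 0.71, SE 0.17, adjusted p = 0.0139, limma). Fkbp5, a chaperone partner of the receptor, rose in IRS1KO hearts after TAC (1.70, adjusted p = 0.000183), with values of -0.31 in IRS2KO (adjusted p = 0.478) and 0.73 in WT hearts (adjusted p = 0.11). None of the 7 genes passed the test for a difference in TAC response between any genotypes. For Fkbp5 the response of IRS1KO minus WT was 0.97 (adjusted p = 0.611, limma). Per1, a clock gene that glucocorticoids induce, fell in IRS2KO hearts (-0.69, adjusted p = 0.00103), a call that the same total per library removed, beside -0.05 in IRS1KO and -0.41 in WT hearts. In sham hearts Fkbp5 was lower in IRS1KO than in IRS2KO (399 ± 185 and 1029 ± 405 normalized counts, log2 fold change -1.39, SE 0.37, adjusted p = 0.0148, limma), while Hsd11b1 was higher in IRS1KO than in IRS2KO (1.01, adjusted p = 0.000468) and than in WT hearts (0.82, adjusted p = 0.00644).

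The regulators of FoxO were split. Of 23, 11 rose and 3 fell after TAC in IRS1KO hearts, and 8 rose and 7 fell in both IRS2KO and WT hearts, with list medians of 0.14, 0.04 and 0.10. Over all genes 31.7% fell in IRS1KO, 31.1% in IRS2KO and 26.6% in WT hearts, and about as many rose. The split in IRS2KO and WT hearts was thus near that of all genes. With the same total per library 16 rose and 1 fell in IRS1KO, 13 rose and 2 fell in IRS2KO, and 15 rose and 1 fell in WT hearts. The 14-3-3 genes Ywhaz, Ywhah and Ywhaq, whose proteins hold phosphorylated FoxO in the cytosol, rose in all 3 genotypes under every scaling tried. Ywhaz averaged 1664 ± 204 normalized counts in IRS1KO TAC and 960.1 ± 98.0 in IRS1KO sham hearts (log2 fold change 0.79, SE 0.11, adjusted p = 2.16e-07, limma), with log2 fold changes of 0.70 in IRS2KO and 0.66 in WT hearts. Ywhah rose by 0.88, 0.81 and 0.60 and Ywhaq by 0.62, 0.65 and 0.55 in IRS1KO, IRS2KO and WT hearts. Akt2, the AKT kinase gene of insulin signalling, fell by 0.68, 0.58 and 0.47. Pdpk1, a kinase that activates AKT, was lower in IRS1KO than in IRS2KO sham hearts (log2 fold change -0.29, SE 0.08, adjusted p = 0.0168, limma), a call that did not hold with the same total per library.

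Other ubiquitin genes of muscle protein breakdown moved both ways. Of 17, 6 fell in each genotype, while 4 rose in IRS1KO, 1 in IRS2KO and 1 in WT hearts, with list medians of -0.10, -0.14 and -0.18, and with the same total per library the split turned to 10, 9 and 7 higher and 3 lower in each. Among all genes 31.7%, 31.1% and 26.6% fell in IRS1KO, IRS2KO and WT hearts, so 6 of 17 is near the share of all genes. Ube2b, a ubiquitin-conjugating enzyme of muscle atrophy, fell by 0.81, 0.90 and 0.69 in IRS1KO, IRS2KO and WT hearts, and stayed lower under every scaling. Zfand5, a proteasome cofactor, fell by 0.49, 0.71 and 0.39, without a WT call on the same-total scale. Psmd11, a proteasome subunit gene, rose by 0.34 in IRS1KO, 0.25 in IRS2KO and 0.25 in WT hearts. Nedd4l, a ubiquitin ligase of membrane channels, fell by 0.22, 0.24 and 0.48, where both knockout values turned positive and lost their calls with the same total per library, and it was higher in IRS1KO than in WT hearts after TAC (log2 fold change 0.39, SE 0.07, adjusted p = 0.00106, limma). Trim55 (MuRF2), a relative of Trim63, was lower in IRS1KO than in WT hearts after TAC (1142 ± 254 and 1508 ± 148 normalized counts, log2 fold change -0.42, SE 0.11, adjusted p = 0.0228, limma).

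A few other FoxO targets and ubiquitin genes differed between genotypes. In sham hearts Cdkn1a, a cell cycle inhibitor, averaged 261 ± 84.1 normalized counts in IRS1KO, 706 ± 322 in IRS2KO and 525.7 ± 108 in WT hearts. It was lower in IRS1KO than in IRS2KO (log2 fold change -1.32, SE 0.32, adjusted p = 0.00579, limma) and than in WT hearts (-1.05, adjusted p = 0.0486), the second of which was not called with the same total per library (adjusted p = 0.0961) or after quantile normalization (0.0564). Pdk4, a kinase that shuts down pyruvate oxidation, was lower in IRS1KO than in IRS2KO sham hearts (14640.0 ± 3604 and 32820.0 ± 5529.7 normalized counts, log2 fold change -1.19, SE 0.38, adjusted p = 0.0427, limma), without a call after quantile normalization (adjusted p = 0.0812). Usp14, a deubiquitinase of the proteasome, was lower in IRS1KO than in IRS2KO (-0.24, adjusted p = 0.000451) and WT sham hearts (-0.16, adjusted p = 0.0331), and neither call held with the same total per library. After TAC, Insr (the insulin receptor) and Bnip3 (a mitophagy receptor) were higher in IRS1KO than in IRS2KO hearts (0.59 and 0.58, adjusted p = 0.0161 and 0.00772, limma). Bnip3 averaged 854 ± 154 in IRS1KO TAC and 877 ± 71.3 in IRS1KO sham hearts, beside 581 ± 149 in IRS2KO TAC and 1026 ± 167 in IRS2KO sham hearts, and its response differed between the knockouts by 0.79 (SE 0.19, adjusted p = 0.0446, but 0.0655 after quantile normalization).

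The genes whose deviations from the group means ran closest to each member were found over 35 libraries among 8881 named genes with a mean of at least 100 normalized counts (8882 for Gadd45a), as a description. Klf15 was nearest to Sesn1 (Pearson's r = 0.954), Sult1a1 and Foxo3, and Foxo3 to Tfdp2 (0.941), Sesn1 and Klf15. For Trim63 the nearest were Retreg1 (0.917), a receptor for autophagy of the endoplasmic reticulum, Sesn1 and Fbxo31, and for Fbxo32 they were Klhl38 (0.938), Mreg and Klhl21. Gadd45a ran closest to Hlf (0.888), a clock-output transcription factor, and Foxo1 to Ubr2 (0.882), a ubiquitin ligase. Foxo4 ran with Gnpat (0.933), Coq9 and Coq10a, genes of ether lipid and coenzyme Q metabolism. Sesn3 (Nfix, 0.767) and Gabarapl1 (Mknk2, 0.752) had the loosest neighbours. All 35 values share depth, scaling and the cell mixture of the libraries.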

How the data were processed

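Poly(A) RNA of heart apex was extracted with mirVana and made into TruSeq Stranded mRNA libraries, per the labels' protocols. Reads were processed with HISAT2 (2.0.6), HTSeq (0.7.1) and DESeq2 on GRCm38, per the submitters' processing notes; no source used here gives the annotation version. The deposited values are a signal, normalized counts for 27012 Ensembl genes, per the file headers. Symbols came from GENCODE vM21 for 26904 of them (99.6%). Dividing each library by its smallest step gave whole reads for 100% of values (tolerance 0.001), which served the count-based alternatives.

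The members and lists were chosen with earlier results of these data known. Genes with a mean of at least 10 (13695) were tested as log2(value + 1), a pseudocount of 1, with limma 3.58.1 (trend, robust, R 4.3.3) in a single fit of 6 groups, two-sided, with Benjamini-Hochberg adjustment over all tested genes and a threshold of 0.05. Named besides the 10 genes were, of each list, up to 4 genes with the smallest adjusted p after TAC and up to 2 called ones in each other comparison. For each of the 10 genes, the 3 genes with the highest correlation were also named. A gene that these rules name is not reported here. Within groups no pair of libraries (85 pairs) agreed within sampling noise, with chi-square per degree of freedom at 2.54 or more, so none were merged and each library counted once. This check cannot tell libraries of separate mice from separate preparations of the same mouse. Motifs were searched on both strands of the 250 bases before each RefSeq start site.

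On simulated data with 200 genes changed 2-fold between WT TAC and WT sham libraries, limma recovered 85% with 11 false calls among 181, edgeR 83.5% with 10 among 177 and DESeq2 86.5% with 17 among 190. The simulation changed 200 of 13695 genes, whereas 54.9% were called in the WT hearts. It also gave each gene the same relative spread in every group, whereas Sesn1 had SDs of 527 in WT TAC and 113 in WT sham hearts. These rates may thus not hold for the data. The alternatives were DESeq2 1.42.0 and edgeR 4.0.16 fits of the recovered reads, other pseudocounts, no filter, other scalings, only the compared groups, a replicate block, leaving out each library and, chosen after seeing the data, leaving out both IRS1KO libraries without an Irs1 read. Library depth of 11707111 to 14609467 reads limits the precision of the rarer genes.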

Additional observations from a re-analysis of the deposited data

Results flagged for a closer look

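Of 60 groups of 5 or 6 libraries (10 genes, 6 groups), 4 held a library that stood apart from the others by Dixon's test, which chance gives for about 1 group in 20. Foxo1 was 471.8 normalized counts in IRS2KO sham replicate 3, the highest of its group, and 358.0 in WT TAC replicate 2, also the highest of its group. Foxo3 was 1600.0 in IRS1KO TAC replicate 1, above the other IRS1KO TAC libraries. Gabarapl1 was 1213.0 in that same library, above the other IRS1KO TAC libraries.

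Gabarapl1 was the single gene of the 10 whose response to TAC differed between genotypes by a test of the difference itself. The log2 response of IRS1KO minus that of IRS2KO hearts was 0.66 (adjusted p = 0.0443, limma), with 822 to 1213 normalized counts in IRS1KO TAC and 832 to 926 in IRS1KO sham hearts, and 708 to 998 in IRS2KO TAC and 986 to 1633 in IRS2KO sham hearts. Over the fits without 1 library each the difference was 0.57 to 0.74 and its adjusted p 0.0146 to 0.0982.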

How the results depend on the processing

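Over 120 single-gene results and 3020 settings, 2883 kept their direction and their side of the threshold, 33 lost a call, 11 gained one, 93 changed sign without being called and none of the called values changed sign. The number of the 10 genes called for the response of IRS1KO minus IRS2KO was 1, and it was 0 with no filter, after quantile normalization, with only the compared groups and without both IRS1KO libraries that had no Irs1 read, and 0 to 1 when 1 library was left out. For IRS1KO against WT after TAC it was 0, and it was 1 with the same total per library, 1 without that pair of libraries (an alternative chosen after seeing the data) and 0 to 1 when 1 library was left out (Sesn3, without WT TAC replicate 3). For IRS1KO against IRS2KO after TAC it was 0, and 1 with the same total per library. With only the compared groups in the fit, it was 1 for IRS1KO against WT and 4 for IRS1KO against IRS2KO in sham hearts, where the fit of 6 groups gave 0 and 1. After TAC in WT hearts it was 8 to 9 when 1 library was left out.

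Over all genes, counts of calls differed by over 1.5 times as follows. With only the compared groups they were 140 for IRS1KO against IRS2KO after TAC (323 with 6 groups), 2148 in sham hearts (1137), 228 for IRS1KO against WT after TAC (643), 1483 in sham hearts (637) and 31 for IRS2KO against WT in sham hearts (0, and 2 with DESeq2 and 1 with no filter). IRS2KO against WT after TAC gave 2 with no filter, against 0. The response of IRS1KO minus IRS2KO gave 56, and 157 with DESeq2, 26 with no filter, 21 with only the compared groups, 34 after quantile normalization, 25 with the same total and 19 without that pair of libraries. That of IRS1KO minus WT gave 15, and 54 with DESeq2 and 7 with the same total.

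A replicate block left the counts of the 10 genes at 8 (IRS1KO), 9 (IRS2KO) and 9 (WT) after TAC, at 1 for IRS1KO against IRS2KO in sham hearts and for the response of IRS1KO minus IRS2KO, and at 0 in the other comparisons. Of 51 pairs of same-numbered libraries 24 had a correlation of their deviations over 0.1. The numbers were not taken as pairs in the main fit, and whether they mark a shared effect was not tested. The correlation was positive in 6 of 16 TAC pairs (-0.603 to 0.568), 13 of 17 TAC and sham pairs of a genotype (-0.08 to 0.209) and 17 of 18 sham pairs (-0.013 to 0.35). The cause of these changes was not tested. Gadd45a had the fewest reads, which limits its precision.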
